A study of Triticum aestivum with 6 samples.

Results

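The S-type anion channels of bread wheat (Triticum aestivum) were read from RNA sequencing libraries of roots. A gene was taken as an S-type anion channel when the first protein name of its deposited UniProt match held the words S-type anion channel, which gave 37 of the 83219 genes in the table. The genes were chosen by that protein name and by no measured value, but the family was proposed with its levels in these libraries already known. The levels, the fold changes and the counts of members below are therefore descriptions and support no claim about the family. The matched entries are Arabidopsis proteins, and the genes are called SLAC1-like, SLAH1-like, SLAH2-like and SLAH3-like after them. The table held 3 SLAC1-like, 3 SLAH1-like, 20 SLAH2-like and 11 SLAH3-like genes.

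There were 2 groups of 3 libraries, 2N and 0N, all from roots of the wild type JW1. Seedlings of both groups germinated for 3 days, had the endosperm removed, spent 3 days in medium with 2 mM nitrate and then 2 days in medium without nitrogen, per the labels' protocols. For the last 3 h the 2N seedlings received the potassium nitrate salt at 2 mM (spelled KNO in the labels), and the 0N seedlings received 2 mM KCl, which is 0 mM nitrate. Nitrate and chloride therefore changed together, so their effects cannot be told apart here. No label says whether replicates were separate cultures or pools of plants, so the p-values measure only the spread between these libraries.

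S-type, or slow, anion channels sit in the plasma membrane and let anions leave the cell. In Arabidopsis, SLAC1 acts in guard cells, where its opening under abscisic acid (ABA) starts the closure of stomata. SLAH3 conducts nitrate and chloride and needs phosphorylation by protein kinases, SLAH2 is selective for nitrate, and SLAH1 conducts no anions alone but joins SLAH3 in the stele of the root, where it promotes the loading of chloride into the xylem.

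Each library held 17234970 to 17645686 counts in 2N and 16208512 to 16426366 counts in 0N, with 69532 to 70850 genes at any count above 0. A count of 3, used as the detection floor, equals 0.170 to 0.174 CPM (counts scaled to library size) in 2N and 0.183 to 0.185 CPM in 0N. These floor values use the library totals, while CPM elsewhere uses TMM library sizes. The floor covers counting error only. The tissue label is root, while another label of the same samples reads leaf tissue. All 20 root marker genes (Casparian strip proteins, silicon efflux transporters, aquaporin NIP2-1) had counts. Their summed level was 634 to 785 TPM (transcript level scaled to gene length and library) in 2N and 650 to 801 TPM in 0N. Of the 18 tested root markers 5 rose (27.8%) and 4 fell (22.2%), against 7.57% and 7.93% of all tested genes. All 3 genes matching Casparian strip membrane protein 1 rose. Of 6 tested genes matching the silicon transporter LSI2, 3 fell, with means of 1.73 to 3.13 TPM over all libraries. TraesCS4B02G361900, TraesCS5A02G529900 and TraesCS4D02G354900, which also match LSI2, did not pass. Their means were 71.0, 113 and 90.3 TPM and their log2 fold changes -0.30, -0.10 and 0.06. The remaining root marker that fell, TraesCS6A02G307300, matches the aquaporin NIP2-1, with a mean of 70.0 TPM and a log2 fold change of -0.39. TraesCS6B02G335900 and TraesCS6D02G286400, which also match NIP2-1, did not pass, at -0.49 and 0.05. With 1 library left out, 4 to 6 root markers rose and 1 to 4 fell, the 1 being without replicate 1 of 0N, replicate 3 of 0N or replicate 2 of 2N. The part of the root markers in the values below was not tested. Of 188 leaf photosynthesis genes, 31 were at 0 in all libraries, and the list summed to 179 to 336 TPM in 2N and 334 to 715 TPM in 0N. Of its 88 tested genes 28 fell (31.8%, against 7.93% of all tested genes). That count was 15 without replicate 1 or replicate 3 of 0N, 10 without replicate 1 of 2N and 8 without replicate 3 of 2N. It was 31 without replicate 2 of 2N and 42 without replicate 2 of 0N. The part of leaf transcripts in the values below was not tested. Of 46 endosperm storage protein genes 36 were at 0 in all libraries, and the list summed to 15.2 to 18.5 TPM in 2N and 17.9 to 19.9 TPM in 0N. Because whole roots were sequenced, fewer cells of a type and less RNA per cell cannot be told apart in any value below.

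SLAH1-like and SLAH3-like genes made up most of the family's transcripts in these roots, and the summed level of each of these types was higher in 2N. The family summed to 62.3, 61.2 and 65.0 TPM in the 2N libraries, against 32.1, 22.5 and 30.9 TPM in the 0N libraries. The groups did not overlap, and the mean of 62.8 ± 1.95 TPM in 2N was 2.21 times the mean of 28.5 ± 5.20 TPM in 0N (SD, n = 3 each). SLAH1-like genes contributed 30.6 ± 5.34 TPM in 2N and 10.7 ± 1.83 TPM in 0N, a ratio of 2.87. SLAH3-like genes contributed 26.1 ± 2.46 TPM in 2N and 13.7 ± 3.46 TPM in 0N, a ratio of 1.91. The 20 SLAH2-like genes together reached 6.08 ± 1.78 TPM in 2N and 4.05 ± 0.31 TPM in 0N, a ratio of 1.50, and the SLAC1-like genes stayed near 0 in both groups.

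Of the 37 genes, 10 had enough counts to enter the comparison of 2N with 0N by edgeR's quasi-likelihood test over all 54313 tested genes, with an adjusted p under 0.05 as the threshold. Among these 10, 8 rose, none fell and 2 did not pass. Over all tested genes 7.57% rose and 7.93% fell, or 15.5% in either direction. At an unadjusted p under 0.05, 1 member was lower in 2N, and DESeq2 also called 0 members lower. With library totals in place of TMM scaling, 2920 genes rose and 6208 fell over the whole table, against 4109 and 4306 with TMM, and the median log2 fold change of all tested genes moved to -0.093, against 0.002 with TMM. Under that scaling 8 members rose and 1 fell. In CPM the 2 groups did not overlap for 9 of the tested members, 8 of them higher and 1 lower in 2N, where 16.2% of all tested genes lay apart in each direction and 32.4% in either. A gene enters the test through the group where it is high, so these counts concern the tested genes and not the whole family.

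**Figure D1:**
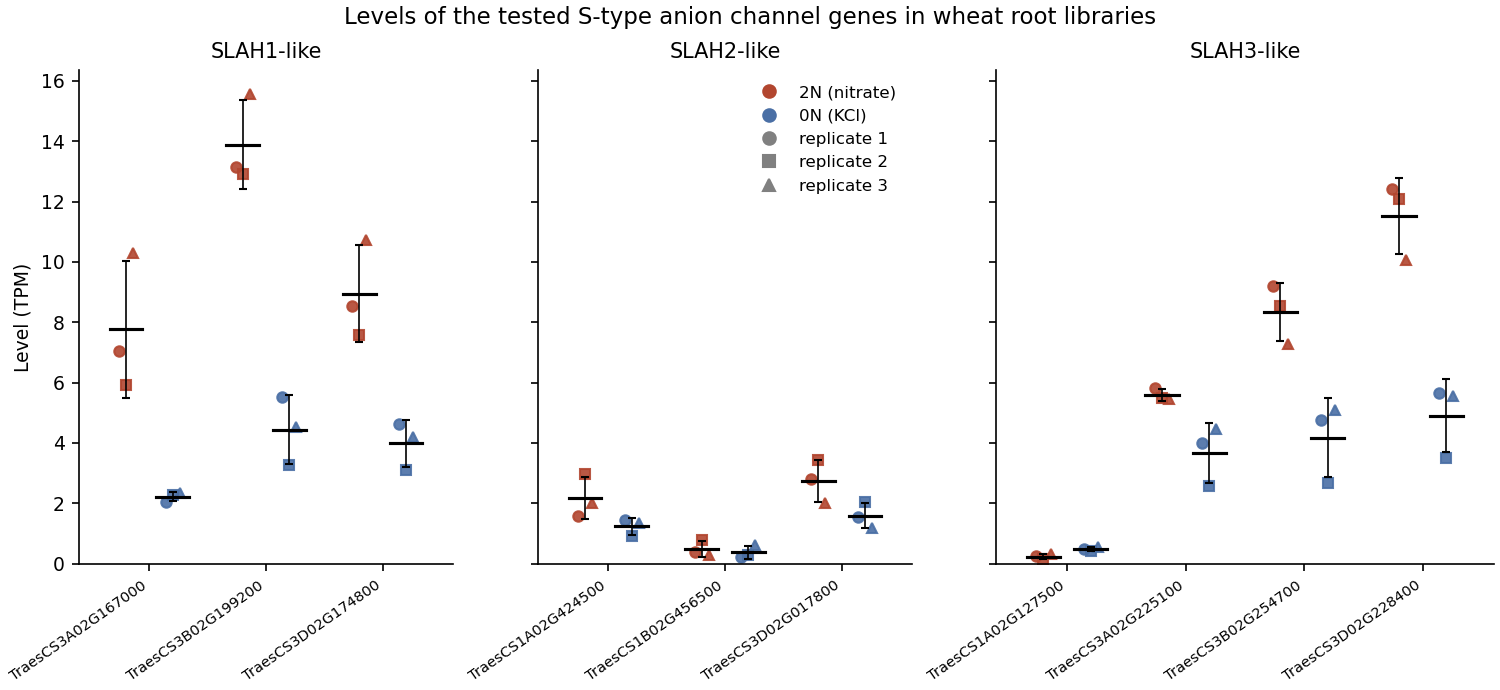
Level in TPM (vertical axis) of each of the 10 tested S-type anion channel genes, with 2N libraries in red left of 0N libraries in blue; symbols mark the replicate, horizontal bars the mean and whiskers the SD (n = 3). The SLAH1-like and the chromosome 3 SLAH3-like genes lie higher in 2N, up to 15.6 TPM, while TraesCS1A02G127500 lies at or below 0.56 TPM in all libraries.

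The 3 SLAH1-like genes, whose Arabidopsis namesake pairs with SLAH3, carry the chromosome codes 3A, 3B and 3D in their identifiers, and all 3 rose. TraesCS3B02G199200 was the most abundant gene of the family, with 13.2, 12.9 and 15.6 TPM in 2N against 5.53, 3.27 and 4.53 TPM in 0N. Its mean over all 6 libraries stood at the 70.5th percentile of tested genes, and its log2 fold change was 1.76 ± 0.15 (SE; adjusted p = 3.01e-06), or 3.38-fold. The groups were far apart for this gene, the lowest 2N library being above the highest 0N library by more than the whole range of either group. TraesCS3A02G167000 had 7.06, 5.93 and 10.3 TPM in 2N against 2.05, 2.27 and 2.35 TPM in 0N. It had the largest log2 fold change of the tested members, 1.92 ± 0.21 (adjusted p = 7.86e-05), and its 0N libraries were close together while its 2N libraries were spread. TraesCS3D02G174800 had 8.55, 7.58 and 10.7 TPM in 2N against 4.64, 3.10 and 4.21 TPM in 0N. Its log2 fold change was smaller, 1.27 ± 0.16 (adjusted p = 9.63e-05), again with no overlap. Replicate 3 was the highest 2N library for all 3 genes.

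SLAH3 is the nitrate and chloride channel of this family in Arabidopsis, and 3 of the 11 SLAH3-like genes rose, again with the codes 3A, 3B and 3D. TraesCS3D02G228400 led them with 12.4, 12.1 and 10.1 TPM in 2N against 5.67, 3.50 and 5.55 TPM in 0N, a log2 fold change of 1.34 ± 0.15 (adjusted p = 3.69e-05). TraesCS3B02G254700 had 9.20, 8.54 and 7.28 TPM in 2N against 4.76, 2.68 and 5.09 TPM in 0N, with a log2 fold change of 1.11 ± 0.19 (adjusted p = 0.00249). Neither gene's groups overlapped. TraesCS3A02G225100 had 5.82, 5.49 and 5.45 TPM in 2N against 3.99, 2.56 and 4.47 TPM in 0N. Its 2N libraries lay within a narrow range above all 0N libraries, and its log2 fold change of 0.71 ± 0.15 (adjusted p = 0.00603) was the smallest of the genes that passed. In limma on log2(TPM + 0.1) this last gene had an adjusted p of 0.0565, the highest of its alternatives, which ran from 0.00029.

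For the 3 SLAH3-like genes that rose, replicate 3 was the lowest 2N library, the reverse of the SLAH1-like genes. The ratio of summed SLAH1-like to SLAH3-like TPM was thus 1.02, 0.992 and 1.57 in the 2N libraries, against 0.791, 0.891 and 0.697 in the 0N libraries. Every 2N library had a higher ratio than every 0N library, with replicate 3 of 2N well above the rest. In 0N, replicate 2 was the lowest library for the 3 SLAH3-like genes and for the SLAH1-like genes with the codes 3B and 3D, but not for TraesCS3A02G167000. The total count of that library lay between those of the other 0N libraries, and its summed leaf marker level of 334 TPM was the lowest of its group. Without it all 6 genes kept their call, and their log2 fold changes ran from 0.51 for TraesCS3A02G225100 (adjusted p = 0.0147) to 1.94 for TraesCS3A02G167000 (adjusted p = 0.00147).

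**Figure D2:**
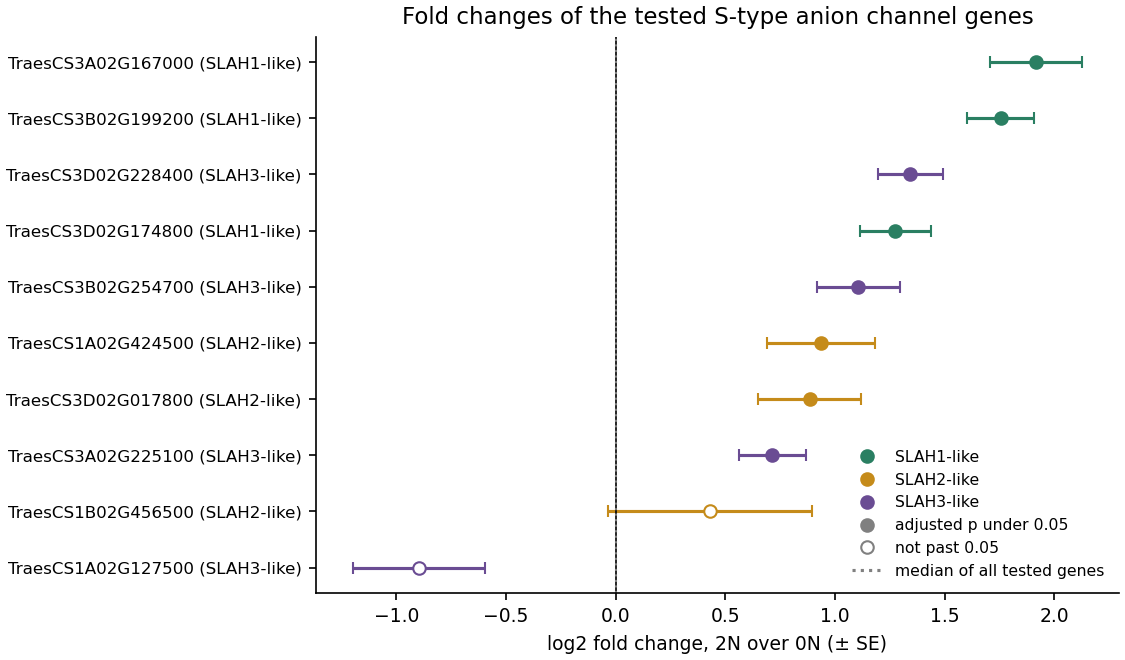
Log2 fold change of 2N over 0N (horizontal axis; points, with SE as whiskers) for the 10 tested S-type anion channel genes, coloured by type, filled where the adjusted p was under 0.05; the dotted line is the median of all tested genes. The 8 filled points lie between 0.71 and 1.92, and the open points are TraesCS1A02G127500 at -0.90 and TraesCS1B02G456500 at 0.43.

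One SLAH3-like gene outside chromosome group 3 was measurable. TraesCS1A02G127500 had 0.24, 0.14 and 0.33 TPM in 2N against 0.48, 0.41 and 0.56 TPM in 0N, from 16, 9.73 and 22 counts in 2N and 29, 26 and 35 counts in 0N. This gene was singled out after its values were seen. Its groups did not overlap, with 2N lower, and its log2 fold change was -0.90 ± 0.30 with an adjusted p of 0.0601. The adjusted p was 0.0349 with library totals, 0.0441 with no filter on low counts and 0.0366 without replicate 3 of 2N, and all alternatives gave between 0.0349 and 0.182.

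The other 7 SLAH3-like genes were not tested. TraesCS1D02G432500 was at 0 in all libraries. The remaining 6 had at most 35 counts over all libraries together, a total reached by TraesCS3A02G151400, picked for it, which had 6, 7 and 1 counts in 2N against 7, 10 and 4 counts in 0N. TraesCS1D02G126500 followed with 22.4 counts in total, and TraesCS3B02G178600, TraesCS3D02G159600, TraesCS1B02G388600 and TraesCS1B02G147400 had 10.6, 9.38, 4 and 3 counts in total. The 2 groups overlapped for each of these 6 genes.

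SLAH2-like genes were the most numerous and among the least expressed. SLAH2 is the nitrate-selective member of the family in Arabidopsis, where it is found in the root stele. Of the 20 wheat genes 3 were tested, and 2 of them rose. TraesCS3D02G017800 had 85, 106 and 61 counts in 2N against 43, 59 and 34 counts in 0N, equal to 2.80, 3.42 and 2.01 TPM in 2N and 1.55, 2.03 and 1.19 TPM in 0N. Its log2 fold change was 0.89 ± 0.24 (adjusted p = 0.0209). The groups were apart by little in CPM and overlapped slightly in TPM. TraesCS1A02G424500 had 1.58, 2.96 and 2.01 TPM in 2N against 1.46, 0.91 and 1.34 TPM in 0N, with a log2 fold change of 0.94 ± 0.25 (adjusted p = 0.0190). Its 2N replicate 1 and 0N replicate 1 were nearly level.

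Both SLAH2-like calls rested on few counts and were lost in several alternatives. For TraesCS1A02G424500 the adjusted p was 0.0854 without replicate 2 of 0N, 0.0779 without replicate 2 of 2N and 0.0829 in limma on log2(TPM + 1), and all alternatives gave between 0.00302 and 0.0854. For TraesCS3D02G017800 it was 0.0937 without replicate 1 of 0N, 0.0854 without replicate 3 of 0N, 0.0606 without replicate 1 of 2N, 0.0679 without replicate 2 of 2N and 0.0659 in limma on log2(TPM + 1), and all alternatives gave between 0.00372 and 0.0937. TraesCS1B02G456500, the third tested SLAH2-like gene and also singled out after its values were seen, had 0.38, 0.78 and 0.28 TPM in 2N against 0.21, 0.29 and 0.63 TPM in 0N. The groups overlapped, and the log2 fold change was 0.43 ± 0.47 (adjusted p = 0.614), turning to -0.087 without replicate 2 of 2N.

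Many SLAH2-like genes are neighbours by identifier. Runs of family members with close identifiers were found on 1A (3 genes, TraesCS1A02G423900 to TraesCS1A02G424500), on 1B (4 genes, TraesCS1B02G456100 to TraesCS1B02G456500) and on 1D (6 genes, TraesCS1D02G432500 to TraesCS1D02G433200, of which the first is SLAH3-like). In these runs 2 genes on 1A, 0 on 1B and 3 on 1D were at 0 in all libraries, and only TraesCS1A02G424500 and TraesCS1B02G456500 were tested. The highest of the untested genes was TraesCS1D02G433100, with 2, 23 and 6 counts in 2N against 13, 4 and 5 counts in 0N. Replicate 2 of 2N stood out there, as it was also the highest 2N library for all 3 tested SLAH2-like genes. A further 4 SLAH2-like genes carry the code for unplaced sequence, among them TraesCSU02G001500 with 16 counts in total. TraesCS3B02G018300 had 28 and TraesCS1B02G456200, in the run on 1B, had 25. These untested genes were picked for their counts, and not every untested SLAH2-like gene is named. In all, 17 SLAH2-like genes were untested, 6 of them at 0 in all libraries.

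SLAC1, the guard cell channel, was close to undetected in these roots. The 3 SLAC1-like genes together had 4, 2 and 4 counts per library in 2N, against 3, 3 and 6 counts in 0N. TraesCS2A02G398000 had 4 counts over all libraries, TraesCS2B02G416100 had 7 and TraesCS2D02G395700 had 11, so both groups were at or near the floor of 3 counts per library and no fold is given. Other guard cell genes were low as well. The stomatal transcription factors FAMA, MUTE and SPEECHLESS had 3, 18 and 1 counts over all libraries, while the 3 genes matching the potassium channel KAT1 had 522. The 11 guard cell marker genes, of which 1 was at 0 in all libraries, summed to 1.33 to 3.20 TPM in 2N and 3.19 to 4.50 TPM in 0N.

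Across the whole family, 27 genes were untested, 7 at 0 in all libraries and 20 with between 1 and 53 counts in total. None of them exceeded a mean of 0.277 TPM, and together they held 3.26% of the family's counts. The 6 SLAH1-like and SLAH3-like genes that rose held 84.8%. By chromosome code, genes of group 3 made up 94.1 ± 1.76% of the family's TPM in 2N and 89.5 ± 0.39% in 0N (SD, n = 3 each).

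**Figure D3:**
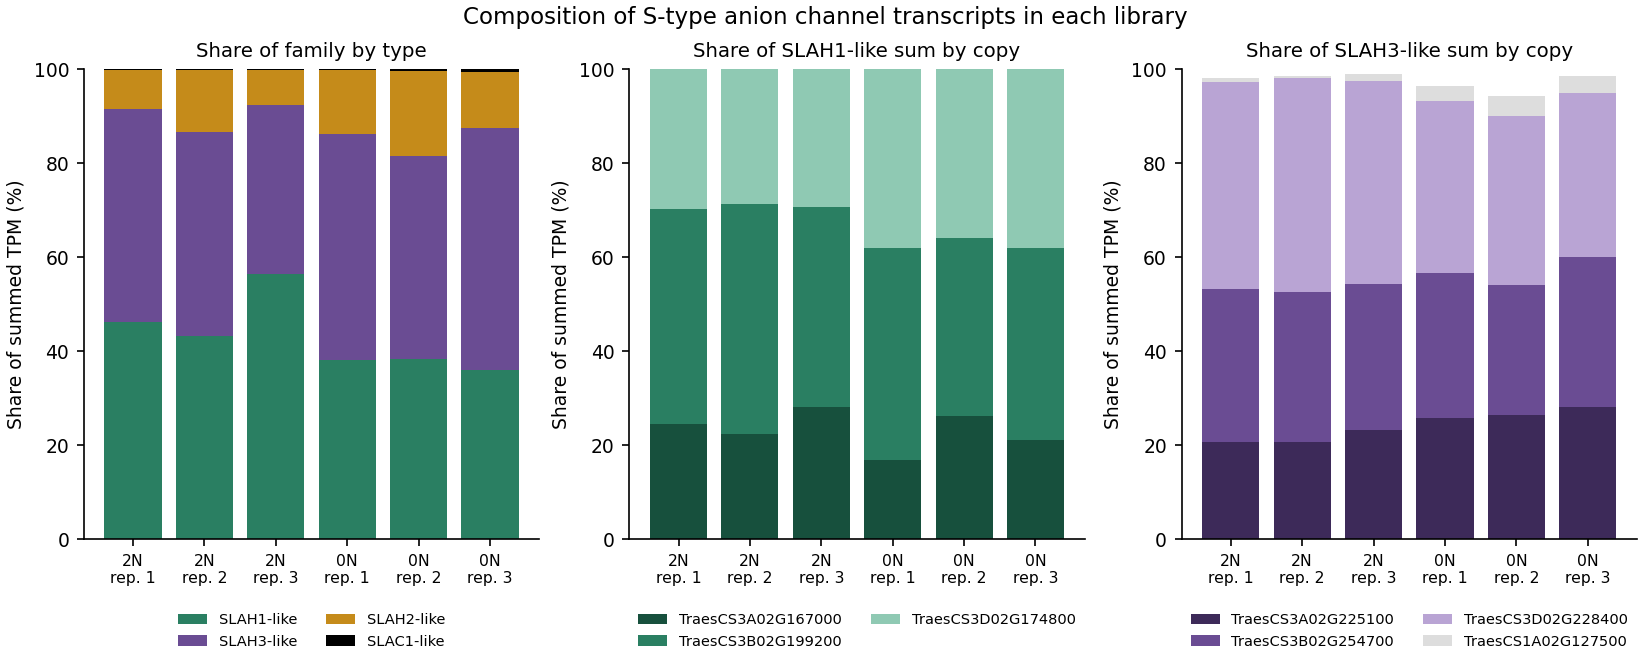
Share of summed TPM in % (vertical axis) in each library, 2N libraries left of 0N libraries, for the family by type (left), the SLAH1-like genes (middle) and the 4 tested SLAH3-like genes as part of the SLAH3-like sum (right; the rest up to 100% is the untested genes). SLAH1-like genes take a larger share of the family in each 2N library (43.2% or more) than in each 0N library (38.4% or less).

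By type, the SLAH1-like share of the family was higher in each 2N library than in each 0N library. SLAH1-like genes held 46.2%, 43.2% and 56.3% of the family's TPM in the 2N libraries, against 38.1%, 38.4% and 35.9% in the 0N libraries. The SLAH3-like share was 45.3%, 43.5% and 36.0% in 2N against 48.2%, 43.1% and 51.5% in 0N, and those groups overlapped. The SLAH2-like share was 8.35%, 13.3% and 7.55% in 2N against 13.5%, 18.2% and 12.0% in 0N, also with overlap. These shares are descriptions and were not tested.

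Shares of single copies within a type are given next; they follow from how much each copy of that type changed, and no difference between copies was tested. Within the SLAH3-like sum, TraesCS3D02G228400 held 44.0%, 45.4% and 43.1% in 2N against 36.7%, 36.1% and 34.9% in 0N. TraesCS3A02G225100 held 20.6%, 20.6% and 23.3% in 2N against 25.8%, 26.4% and 28.1% in 0N, so its share was lower in 2N although its level was higher. Within the SLAH1-like sum the share of the 3D copy, TraesCS3D02G174800, was lower in 2N, at 29.7%, 28.7% and 29.3% against 38.0%, 35.9% and 38.0% in 0N. None of these 3 shares overlapped between the groups, and they were picked after their values were seen. The share of TraesCS1A02G127500 in the SLAH3-like sum was also apart, at 0.85%, 0.53% and 1.41% in 2N against 3.11%, 4.23% and 3.52% in 0N. The shares of TraesCS3A02G167000, TraesCS3B02G199200 and TraesCS3B02G254700 overlapped, as did those of the tested SLAH2-like genes. Summed over the family, the A, B and D codes reached 15.9 ± 1.93, 23.1 ± 0.52 and 23.8 ± 0.39 TPM in 2N, against 7.86 ± 1.26, 9.54 ± 2.32 and 10.9 ± 1.79 TPM in 0N.

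The counting bears on these shares, since it may divide reads among similar copies; how similar the copies are was not examined. Of the 8 genes that rose, 7 had counts that were not whole numbers in at least 1 library. The summed counts of the 3 SLAH1-like genes, and those of the 3 SLAH3-like genes that rose, were whole in 6 of 6 libraries within 0.02 of a count, while the sum over all 11 SLAH3-like genes was whole in 5 of 6. Values of a single copy, in counts or TPM, are uncertain where the counting divided reads among copies. A division within a set leaves its summed counts as they are, but it can move its summed TPM, which is scaled by the length of each gene. The libraries are not stated to keep the strand, so reads of a gene overlapping on the other strand cannot be told apart either.

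Other anion transport genes give the setting. Over all tested genes 7.57% rose and 7.93% fell, and the counts of each list below are to be set beside those shares. Proteins of the CLC family move nitrate and chloride across inner membranes such as the tonoplast, and 15 of 31 tested CLC genes rose while 16 did not pass, with a median log2 fold change of 0.79. The count of rises was 14 or 15 in all alternatives. Falls numbered 2 with library totals and 1 in limma on log2(TPM + 1) and without replicate 3 of 0N, and the median was 0.14 in limma on log2(TPM + 1). All 6 CLC-b-like genes were among those that rose. TraesCS6D02G084000 (CLC-b) had 5.77 ± 0.61 TPM in 2N and 1.23 ± 0.09 TPM in 0N (SD, n = 3 each), and TraesCS5B02G457100 (CLC-g) had 22.0 ± 2.38 TPM in 2N and 5.98 ± 0.73 TPM in 0N. Of 14 tested genes of the malate transporter family ALMT, which holds the rapid, R-type anion channels, 3 rose (21.4%) and 1 fell (7.14%). The count of falls was 0 to 2 over the alternatives, and the 1 that fell matches ALMT1. The whole list summed to 118 to 124 TPM in 2N and to 141 to 146 TPM in 0N, so its summed level was lower in 2N. The 3 that rose all match ALMT9, a vacuolar channel in Arabidopsis; the median of the list, 0.05, turned to -0.04 with library totals. TraesCS7B02G116000 had 8.33 ± 1.31 TPM in 2N and 4.97 ± 0.33 TPM in 0N, and TraesCS7A02G208700 had 6.79 ± 0.81 TPM in 2N and 3.97 ± 0.47 TPM in 0N.

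**Figure D4:**
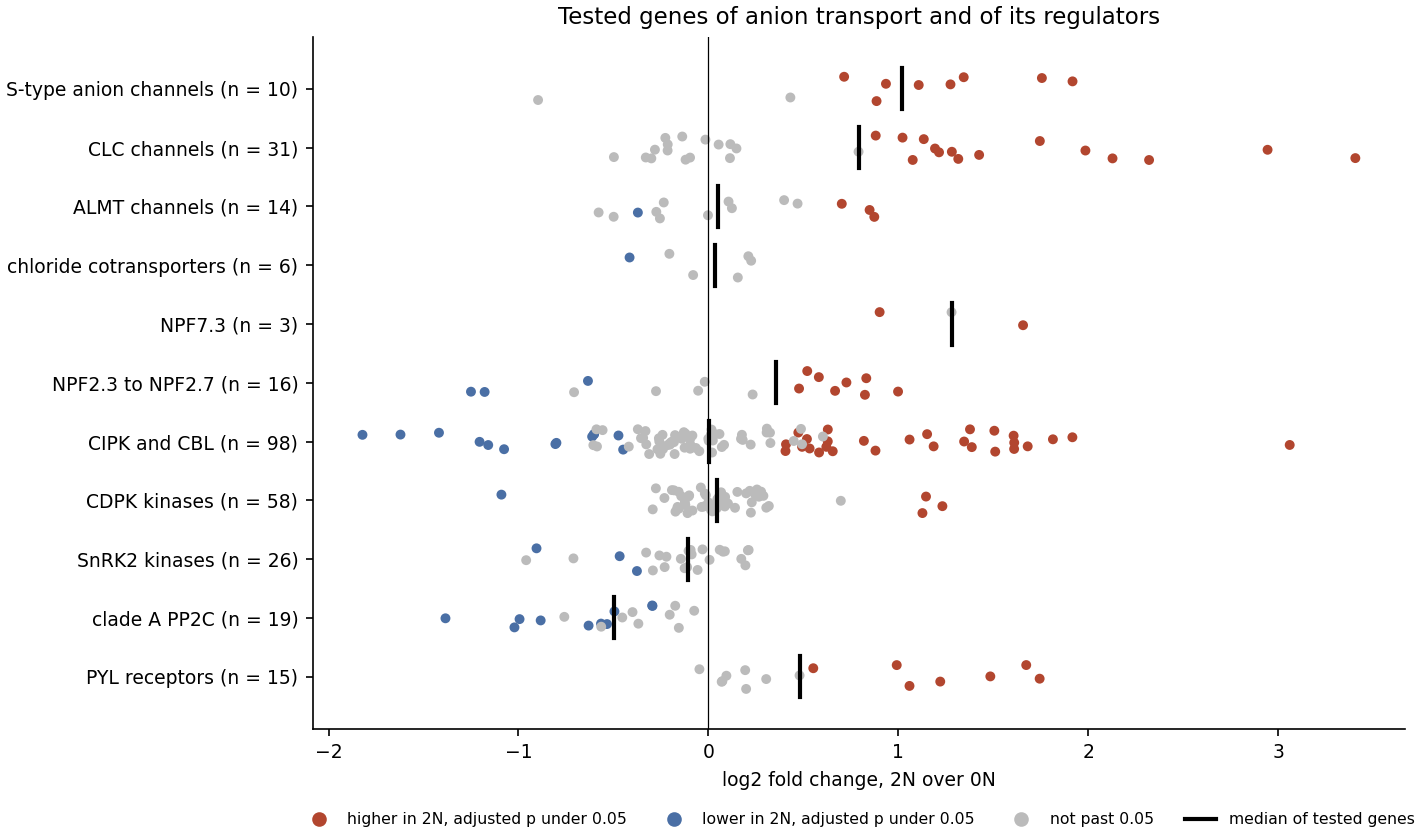
Log2 fold change of 2N over 0N (horizontal axis) of each tested gene of the S-type anion channels and of 10 lists of related genes, with the number of tested genes beside each name; points are red where higher and blue where lower at an adjusted p under 0.05, grey otherwise. The medians run from 1.28 for the 3 NPF7.3 genes to -0.49 for the phosphatases, with 1.02 for the S-type anion channels.

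Carriers that move nitrate out of cells or into the xylem were also listed. Of 16 tested genes matching NPF2.3 to NPF2.7, the Arabidopsis group of efflux carriers, 8 rose and 3 fell, with a median of 0.36. All of these calls were among the 15 genes matching NPF2.3, and the 1 tested gene matching NPF2.7 did not pass, at -0.71. Over the list, 5 rose without replicate 1 of 0N or in limma on log2(TPM + 1), and 1 fell at a minimum count of 30. TraesCS7D02G049300 had 7.90 TPM in 2N on average and a log2 fold change of 0.82. TraesCS7A02G054000 had 24.1 TPM in 2N on average and a log2 fold change of 0.67. Of the 3 tested genes matching NPF7.3, a carrier that loads nitrate into the xylem in Arabidopsis, 2 rose, TraesCS6A02G263500 by 1.66 ± 0.31 (adjusted p = 0.0213) and TraesCS6B02G290500 by 0.90 ± 0.22 (adjusted p = 0.0331). Neither passed without replicate 1 of 0N or without any single 2N library, where the adjusted p ranged from 0.0505 to 0.146, nor with no filter on low counts. With library totals 1 of the 3 genes passed, and with DESeq2 or without replicate 3 of 0N all 3 did. Of 6 cation-chloride cotransporter genes, 1 fell, TraesCS7A02G276500, with a log2 fold change of -0.42 ± 0.12 (adjusted p = 0.0311). This call was lost with DESeq2, at an adjusted p of 0.141, and without any single library except replicate 2 of 0N, at 0.0540 to 0.118.

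Kinases and phosphatases set the activity of these channels in Arabidopsis. In the ABA pathway, receptors of the PYL type block clade A phosphatases, which in turn hold SnRK2 kinases inactive. Of 15 tested PYL genes 7 rose and 8 did not pass, and of 19 tested phosphatase genes listed by clade A numbers of rice 10 fell and 9 did not pass. The list also took in 3 genes that match the Arabidopsis phosphatase 2C of number 9, which is outside clade A, and 2 of these are among the 10. The phosphatase count was 4 without replicate 1 of 0N and 6 each without replicate 1 of 2N, without replicate 3 of 2N and with DESeq2. TraesCS1D02G293600 (PYL4) had 50.6 TPM in 2N on average, with a log2 fold change of 1.48. TraesCS1A02G297600 (PYL4) had 43.9 TPM in 2N on average, with a log2 fold change of 1.67. TraesCS3B02G394600 fell by 0.99 and TraesCS3A02G362200 by 1.02 on the log2 scale; both match the rice phosphatase 2C number 9. Of 26 tested SnRK2 genes 3 fell (11.5%, against 7.93% of all tested genes) and 23 did not pass. The count of falls was 8 under library totals, 6 in limma on log2(TPM + 1) and 5 with no filter or a minimum count of 30. TraesCS2A02G163800 changed by -0.47 and TraesCS4D02G078100 by -0.90.

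Some calcium-linked kinases activate SLAC1 and SLAH3 in Arabidopsis. Of 58 tested calcium-dependent protein kinase genes 3 rose (5.17%) and 1 fell (1.72%). Both shares were below those over all tested genes, 7.57% and 7.93%. The 3 that rose are the genes matching CDPK7 of rice. The count of rises was 5 without replicate 2 of 2N or with no filter, and that of falls was 3 with library totals and 2 without replicate 3 of 0N. TraesCS4B02G321800 had 12.8 TPM in 2N on average and a log2 fold change of 1.23. TraesCS5A02G490200 had 24.7 TPM in 2N on average and a log2 fold change of 1.13. Of 98 tested CIPK kinase and CBL sensor genes, 28 rose (28.6%) and 13 fell (13.3%), with a median of 0.0008. TraesCS2D02G155700 (CIPK21) rose by 1.92 and TraesCS1A02G080600 (CIPK17) by 1.61 on the log2 scale. All 3 tested genes matching CIPK23 fell, with a median of -1.16, and were singled out after their values were seen. These CIPK numbers are those of the matched protein names and were not mapped to the Arabidopsis kinases. The CIPK and CBL count of rises was 18 without replicate 3 of 0N and 17 in limma on log2(TPM + 1).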

How the data were processed

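Per the submitters' processing notes, HISAT and Bowtie2 were used; no version is named, and the genome build, gene annotation and counter were not given in the sources used here. Deposited by the authors were expected counts of reads per gene (not normalized; 45.1% of values not whole within 1e-06) and TPM per gene, per the file headers; 20 other value columns were not used. Gene names are the deposited UniProt matches. The reference table of 155467 wheat genes (IWGSC CS RefSeq v2.1) matched 0 identifiers, so no coordinates or sequences are given and chromosomes are the codes inside the identifiers.

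Expected counts were rounded and filtered (filterByExpr, minimum count 10, minimum total 15), leaving 54313 genes. Libraries were TMM-scaled and compared by edgeR 4.0.16 (R 4.3.3; robust quasi-likelihood test, 2-sided, no covariate), with p-values adjusted by Benjamini and Hochberg across every tested gene (threshold 0.05). Log2 fold changes are 2N over 0N; SE is their size divided by the square root of F. The fit was tested on simulated data. TPM compares levels between genes, and CPM uses TMM library sizes. Alternatives used DESeq2 1.42.0, limma 3.58.1 on log2(TPM + 1) and log2(TPM + 0.1), other scalings and filters, a replicate block, and each library left out; for the related lists they were added after the data were seen.

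The members and gene lists were chosen with earlier results of these data known. Every member is accounted for, some of the untested ones only within the totals for their type or the family. Named with values by rule were all members past the threshold, the 2 members of each SLAH type with the highest mean TPM, and from each related list at most the 2 genes of smallest p past the threshold. Other genes named were picked after their values were seen.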

Additional observations from a re-analysis of the deposited data

How the results depend on the processing

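Of the genes that rose in 2N, TraesCS3A02G167000, TraesCS3B02G199200, TraesCS3D02G174800, TraesCS3B02G254700 and TraesCS3D02G228400 stayed past the threshold in 14 of 14 alternatives, with adjusted p at most 0.0194. The number of family members that rose, 8, was 5 in limma on log2(TPM + 0.1) and ran from 6 to 8 with 1 library left out. The number that fell, 0, was 1 with library totals and 1 with no filter, and ran from 0 to 1 with 1 library left out; the gene was TraesCS1A02G127500. The log2 fold change of TraesCS1B02G456500 was -0.087 without replicate 2 of 2N and ran from there to 0.99 with 1 library left out. Over all genes, 2502 rose in limma on log2(TPM + 1) and 2465 on log2(TPM + 0.1), against 4109; with 1 library left out 2622 to 4285 rose and 3082 to 4100 fell. The cause was not tested. Same-numbered 2N and 0N libraries deviated from their group means with correlations of -0.019, -0.117 and 0.025 over genes. With 3 libraries per group, these values cannot decide whether same-numbered libraries share an origin. With the replicate as a block, 3454 genes rose and 3845 fell, with 8 and 0 members. In that fit the cotransporter TraesCS7A02G276500 had an adjusted p of 0.0624, and all 3 NPF7.3 genes passed. The filter on low counts left 27 of the 37 genes untested; with no filter 20 of them were tested, and none of these passed in either direction.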
